A study of Mus musculus with 16 samples.

Results

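The oxidative phosphorylation genes described here are the rows of a mouse gene count table whose symbol begins with Nduf, Uqcr, Atp5 or Cox followed by a digit from 4 to 8. Of 23999 rows, 88 met that rule. By prefix they fell into 45 genes of complex I, 8 of complex III, 18 of complex IV and 17 of complex V. By their known roles 79 encode subunits or subunit isoforms, counting Cox7a2l, a factor for joining complexes III and IV into supercomplexes. The other 9 caught by the prefix do not: the complex I assembly factors Ndufaf1 to Ndufaf7, and Atp5s and Atp5sl.

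Oxidative phosphorylation takes place in the inner mitochondrial membrane. Complex I passes electrons from NADH to ubiquinone, complex III passes them on to cytochrome c, and complex IV passes them to oxygen. The proton gradient that results drives ATP synthase, complex V. Most subunits are encoded in the nucleus, the remainder in mitochondrial DNA, and leukaemic blasts are known for their reliance on this pathway. Most of the nuclear subunits are small proteins with short messenger RNAs: 57 of the 88 genes have a transcript under 1 kb in the annotation used for lengths.

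Poly(A) RNA was sequenced from myeloid sarcomas, which are solid tumours of acute myeloid leukaemia cells, and from whole bone marrow infiltrated by the leukaemia. The 9 marrow libraries came from the NPM1cA/SMC3+/- mice 737, 779, 782, 919, 949, 1103, 1267, 2721 and 3332, and 6 sarcoma libraries came from NPM1cA/SMC3+/- mice, with 1 tumour each from mouse 1267 and from the animal labelled 1268_1270 and a pair each from mice 948 and 2721. A further sarcoma, of mouse 841, is labelled NPM1cA with no SMC3+/-. NPM1cA, the mutant cytoplasmic nucleophosmin, is in every genotype label, so no library lacks it, and SMC3+/- denotes heterozygous loss of a cohesin subunit. The labels give neither age, sex nor the promoters behind these alleles, and they do not say whether 1268_1270 is 1 animal or a pool. Per the labels' protocols tumours went straight into Trizol, while marrow was crushed from bone, filtered and cleared of red cells first, so handling and tissue cannot be told apart. Libraries held 9797201 to 39197660 counts. In bulk tissue, fewer cells of a type and less RNA per cell cannot be told apart either.

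Several libraries stood apart. In the marrow libraries 737, 779 and 782 transcripts longer than 6 kb were scarce, with median log2 deviations from the gene's median over the 16 libraries of -2.49, -2.47 and -2.28. Tumour 1 of mouse 948 lay at -0.69, and marrow 1267 was close to it at -0.65. Levels in these first 4 are given apart from those in the other 12 unless a range is said to cover all libraries or all mice. The summed level of 8 leukocyte markers was 523 CPM (counts scaled to a common normalised library total) in sarcoma 1268_1270 and 3896 to 9721 CPM in the other 15 libraries, while 6 adipocyte markers summed to 40103 CPM in that tumour. The labelled cell type was thus weakly represented in sarcoma 1268_1270. The 10 skeletal muscle markers summed to 3148 CPM in tumour 1 of mouse 948, to 542 CPM in tumour 2 of mouse 2721 and to 174 CPM in sarcoma 1268_1270, against at most 77.9 CPM elsewhere.

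Transcripts of the 88 genes were most abundant in the 4 libraries set apart. Their summed level was 21126, 20728 and 19261 CPM in marrow 737, 779 and 782, and 23493 CPM in tumour 1 of mouse 948. In the 6 other marrows it was 7516 CPM for mouse 919, 5674 for 949, 6108 for 1103, 14332 for 1267, 4585 for 2721 and 6896 for 3332. Marrow 1267 was thus higher than the other 5 and between them and the 3 marrows set apart. Among the other SMC3+/- sarcomas the sum was 5288 CPM in tumour 2 of mouse 948, 10641 in 1267, 12358 in 1268_1270, and 8250 and 7731 in tumours 1 and 2 of mouse 2721. Sarcoma 841 had 7387 CPM. Outside the 4 libraries the tissues overlapped, marrow spanning 4585 to 14332 CPM and SMC3+/- sarcoma 5288 to 12358 CPM. Scaled by total counts alone the sum in tumour 1 of mouse 948 was 15596 CPM, since its normalisation factor was 0.664, and that library then fell below marrow 737, 779 and 782.

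**Figure D1:**
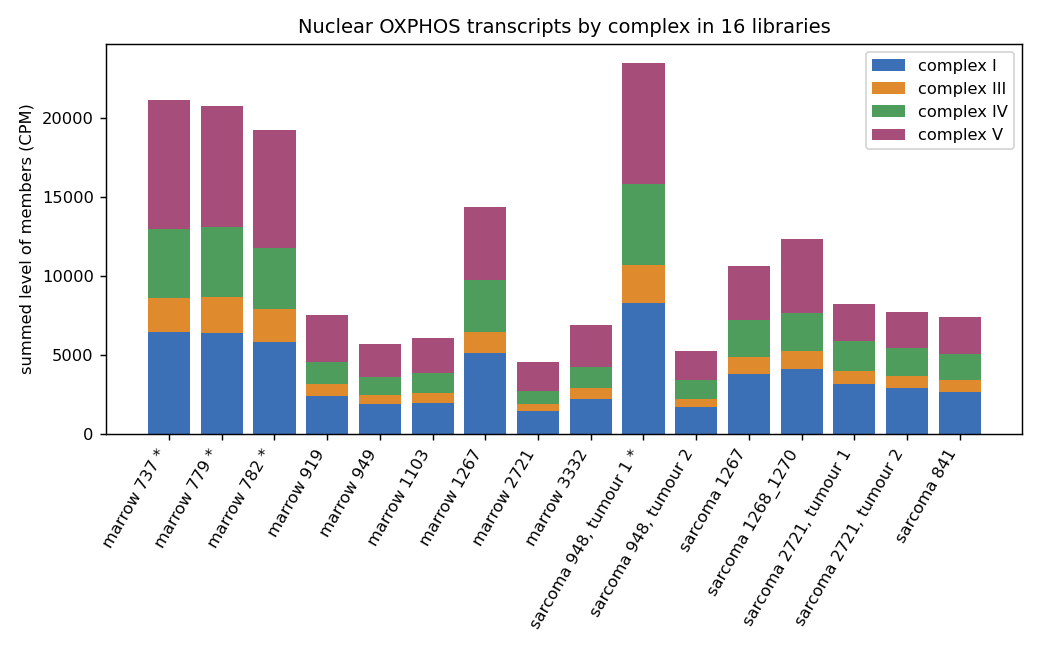
Stacked bars give the summed CPM of the members of each complex in the 16 libraries, with an asterisk on the 4 libraries low in long transcripts. These 4 bars reach 19261 CPM or more, and the next highest is marrow 1267 at 14332 CPM.

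The make-up of the sum by complex varied less than its size. Complex I made up 30.3% of the sum in marrow 782 and 38.4% in tumour 1 of mouse 2721, the lowest and highest of the 16 libraries. Complex V made up 28.5% in that tumour and 40.4% in the marrow of the same mouse, again the lowest and the highest. Complex IV stayed between 18.2% and 23.0%, and complex III held 9.14% to 9.87% in the 6 other marrows and 9.4% to 10.2% in the 5 other SMC3+/- sarcomas. In the 6 other marrows complex V held 31.8% to 40.4%, and in the 5 other SMC3+/- sarcomas 28.5% to 38.1%, so the tissues overlapped.

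Other short transcripts moved with these genes in most libraries. For each library the median log2 deviation of the expressed members was set beside that of 641 expressed genes with transcripts under 1 kb that are not members. In marrow 737, 779 and 782 the members lay at 1.14, 1.11 and 1.03, and the other short genes at 0.85, 0.93 and 0.69. In tumour 1 of mouse 948 the values were 1.46 and 1.12, in marrow 1267 they were 0.65 and 0.55, and in marrow 2721 they were -0.90 and -0.90. Sarcoma 1268_1270 went the other way, with members at 0.30 and other short genes at -0.47. Members under 1 kb alone lay at 1.11, 1.10 and 0.97 in marrow 737, 779 and 782. Over the expressed members the Spearman correlation of deviation with transcript length was 0.05, -0.11 and 0.007 in these 3 marrows. It was -0.23 in tumour 1 of mouse 948, -0.38 in marrow 1267, 0.44 in marrow 2721 and 0.18 in sarcoma 1268_1270. The part of transcript length in the members' levels was not tested.

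**Figure D2:**
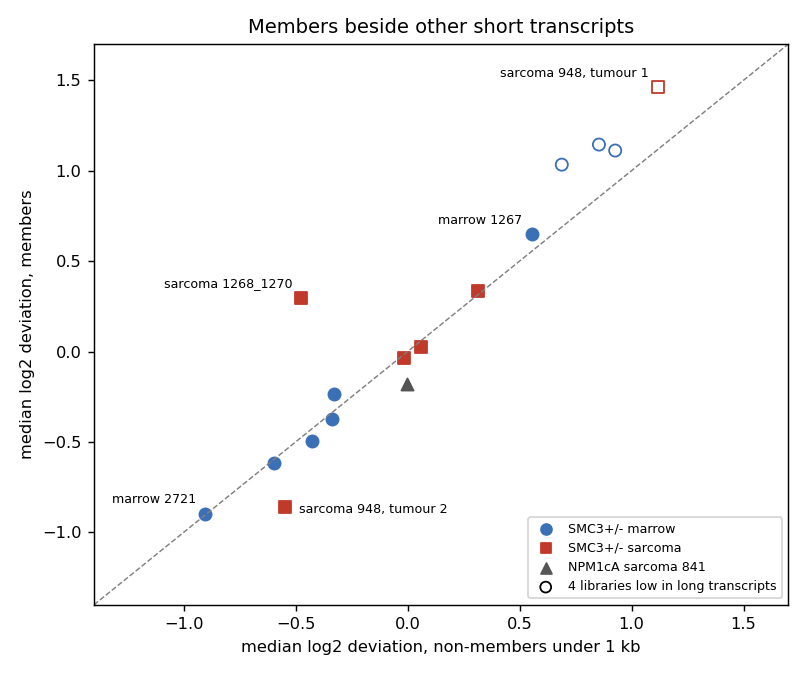
Each point is 1 of 16 libraries, placed by the median log2 deviation of non-member genes under 1 kb (x axis) and of the members (y axis), with open symbols for the 4 libraries low in long transcripts and a dashed line of equal values. Most libraries lie near the line, and sarcoma 1268_1270 lies above it at -0.47 and 0.30.

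Among the 9 marrows, the 3 low in long transcripts had more of most members than the other 6. Of the 85 members that passed the count filter, 41 were higher in all 3 than in any of the other 6, where 13.6% of all 14730 genes tested and 20.7% of 1418 non-members under 1 kb did the same. No member was lower in all 3, where 17.6% of all genes and 4.87% of the short non-members were. The median ratio of means was 2.57 over these members, 1.52 over the short non-members and 0.788 over all genes. By complex it was 2.43 for I, 3.04 for III, 2.72 for IV and 2.76 for V. Members near 1 were Atp5s at 1.04, Ndufa10 and Ndufv3 at 1.08 each, and Cox7a1 at 1.11, followed by Atp5sl at 1.22 and Ndufs1 at 1.30. Cox6a2 was far below 1 at 0.073 and Ndufa4l2 had 0 counts in the 3 marrows, while Ndufb2 reached 4.03 and Ndufc2 and Uqcrfs1 3.84 each. Ndufs1, the largest core subunit of complex I, was at 109, 88.3 and 69.2 CPM in marrow 737, 779 and 782 and at 43.4 to 83.1 CPM (median 73.3) in the 6 others, so these groups overlapped.

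Per kilobase of transcript, over the 12 other libraries, the highest median level belonged to Cox4i1, the common isoform of cytochrome oxidase subunit 4, at 462 CPM per kb. Cox6c followed at 326, the ATP synthase beta subunit gene Atp5b at 315 and the epsilon subunit gene Atp5e at 307 CPM per kb. The core subunits Ndufs1 and Ndufv1 of complex I had lower values on this scale, with 27.9 and 47.5 CPM per kb. Even within the 6 other marrows levels were uneven, the coefficient of variation having a median of 56.6% over the tested members. It was lowest for Ndufs1 at 18.0% and highest for Ndufa4l2 at 181%.

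The main comparison set the 4 SMC3+/- sarcoma mice against the 9 marrow mice, with libraries of the same mouse and tissue summed. Of the 85 tested members 1 differed, Ndufa4l2, which was higher in sarcoma. Among all genes 4.49% were called higher and 0.0543% lower (edgeR quasi-likelihood test, adjusted p under 0.05). The others did not pass, and of the 85 fitted changes 45 were positive and 40 negative. The median log2 fold change was 0.04 over the members and 0.07 over all genes tested. Without the 4 libraries low in long transcripts the median over the members was 0.23 and over all genes 0.04, 72 of the 85 values were positive, and Ndufa4l2 was again the single call. That median rested on single libraries: it was 0.55 when marrow 1267 was left out as well (0.06 over all genes) and 0.08 when sarcoma 1268_1270 was left out as well (0.02 over all genes). Without the 4 libraries, 2.04% of all genes were called higher and 0.0204% lower.

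By complex, the median log2 fold change was 0.08 for I, 0.06 for III and 0.10 for IV, and -0.22 for V. Without the 4 libraries it was 0.23, 0.42, 0.29 and 0.15, so the sign of complex V turned. With marrow 1267 left out too the medians were 0.54, 0.81, 0.74 and 0.43, and with sarcoma 1268_1270 left out instead they were 0.09, 0.15, 0.26 and 0.04. With scaling to leukocyte markers the median over all genes was 1.99 and that over the members 2.16, and 71 of 85 members were then called higher, where 52.2% of all genes were (edgeR adjusted p under 0.05). Both medians thus rose together under that scaling. It raises values most in sarcoma 1268_1270, where the leukocyte markers summed to 523 CPM against 3896 to 9721 CPM in the other libraries.

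**Figure D3:**
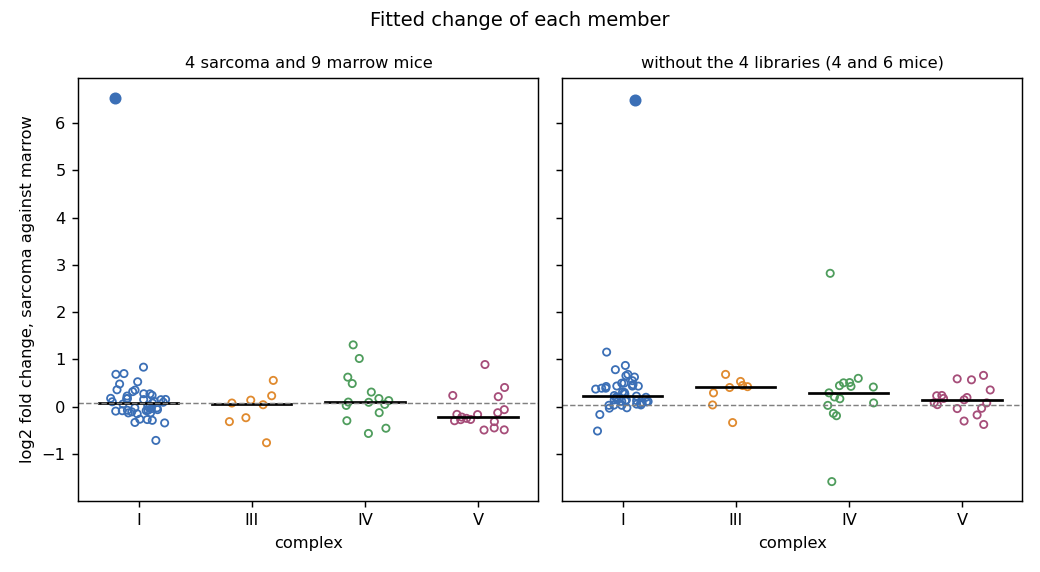
Points are the fitted log2 fold changes of sarcoma against marrow for the 85 tested members by complex, filled where the adjusted p was under 0.05, with black bars at the complex medians and a dashed line at the median of all genes. Ndufa4l2 stands alone above 6 in both panels, and the complex V median moves from -0.22 to 0.15 once the 4 libraries are left out.

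Complex I had 45 members, all tested. Of its 7 core subunits, which carry the flavin, the iron-sulfur clusters and the quinone site, 4 had positive and 3 negative changes and none was called. Ndufv1, which holds the NADH site, was at 339, 364 and 236 CPM in marrow 737, 779 and 782, at 62.5 to 123 CPM (median 93.1) in the 6 other marrows and at 234 CPM in tumour 1 of mouse 948. It was at 64.6 CPM in tumour 2 of that mouse, 105 in sarcoma 1267, 213 in 1268_1270, and 70.9 in each tumour of mouse 2721. The 3 marrows and the first tumour of mouse 948 were the highest libraries, and the tissues overlapped (log2 fold change -0.33 ± 0.52 SE, edgeR adjusted p = 0.934). Its value turned to 0.20 without the 4 libraries. Ndufs7, the bearer of the last iron-sulfur cluster, had 0.17 ± 0.32. None of the 30 accessory subunits was called (median 0.10), nor was any of the 7 assembly factors (median -0.07).

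Ndufv3, a small accessory subunit of the NADH-oxidising tip, came next to Ndufa4l2 by p. It was at 66.5 to 178 CPM over the 9 marrow mice (median 84.9) and at 148 to 245 CPM in the 4 sarcoma mice, with only marrow 1267 inside the sarcoma range. The log2 fold change of 0.70 ± 0.30 had an edgeR adjusted p of 0.301 and was not called, and it was 0.47 without the 4 libraries. The assembly factor Ndufaf7, a methyltransferase, averaged 22.2 ± 6.69 CPM (SD, n = 4) in sarcoma and 33.4 ± 16.9 CPM (SD, n = 9) in marrow, with overlapping groups and an edgeR adjusted p of 0.502.

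Ndufa4l2 encodes a hypoxia-inducible paralogue of Ndufa4 and is known from pericytes and from tumours. Its counts were 0 in 6 of the 9 marrows, 2 in marrow 919, 10 in marrow 1103 and 1 in marrow 1267. In the SMC3+/- sarcomas its counts were 25 and 161 in tumours 1 and 2 of mouse 948, 130 in 1267, 149 in 1268_1270, and 152 and 96 in tumours 1 and 2 of mouse 2721. Sarcoma 841 had 49 counts. Every sarcoma library was above every marrow library, the lowest sarcoma at 1.47 CPM and the highest marrow at 0.324 CPM. With libraries of the same mouse and tissue summed, its groups did not overlap either. Over such sums, groups that do not overlap in this direction were found for 4.56% of all genes tested. In the other direction they were found for 0.129%, with no member among the latter. Over mice Ndufa4l2 averaged 5.72 ± 1.35 CPM (SD, n = 4) in sarcoma and 0.0464 ± 0.104 CPM (SD, n = 9) in marrow. Its log2 fold change was 6.54 ± 1.23 SE with an edgeR adjusted p of 0.00684.

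The size of the Ndufa4l2 difference rests on few marrow counts, and its log2 value rose to 8.18 without marrow 1103. With so few, it was the sarcoma counts that let the gene pass the count filter. Without the 4 libraries the log2 fold change was 6.48 with an edgeR adjusted p of 0.0302. Without sarcoma 1268_1270 it was 6.41 with an edgeR adjusted p of 0.0342. Leaving out that sarcoma together with the 4 libraries ended the call, at 6.52 and an edgeR adjusted p of 0.075, as did leaving out marrow 1267 with them, at 6.42 and 0.0609, so the log2 fold changes stayed near that over all samples. With mouse as a block the log2 fold change was 7.27 and the edgeR adjusted p 0.927. Only mice 1267 and 2721, which gave both tissues, inform that fit, so its p cannot decide whether the tissues differ. The 8 pericyte and smooth muscle markers were also mostly higher in sarcoma. Rgs5, Abcc9 and Myl9 were higher in every SMC3+/- sarcoma library than in any marrow, as Ndufa4l2 was, and the others overlapped between the tissues. The sum of the 8 was 1.13 to 61.4 CPM in marrow, where 2 to 8 of the 8 were above 0. It was 42.7 to 739 CPM in the SMC3+/- sarcomas, where all 8 were above 0 in each library. In tumour 2 of mouse 948 Ndufa4l2 was at its highest, 12.6 CPM, while the marker sum was at its lowest among the sarcomas, 42.7 CPM. There Rgs5 was at 0.941 CPM and Cspg4 at 4.55 CPM, its highest level outside sarcoma 1268_1270. Marrow 3332 had 61.4 CPM of these markers, of which Acta2 made up 53.2 CPM, and 0 counts of Ndufa4l2. The part of such cells in the difference was not tested. The gene's span overlaps Shmt2 on the opposite strand, and the strand setting is not given in the sources used here. Shmt2 itself was at 31.0 to 189 CPM over all marrow libraries and at 27.2 to 90.8 CPM over all SMC3+/- sarcoma libraries. Ndufa4, the paralogue now counted with complex IV, was at 207 ± 87.4 CPM (SD, n = 4) in sarcoma and 179 ± 108 CPM (SD, n = 9) in marrow.

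**Figure D4:**
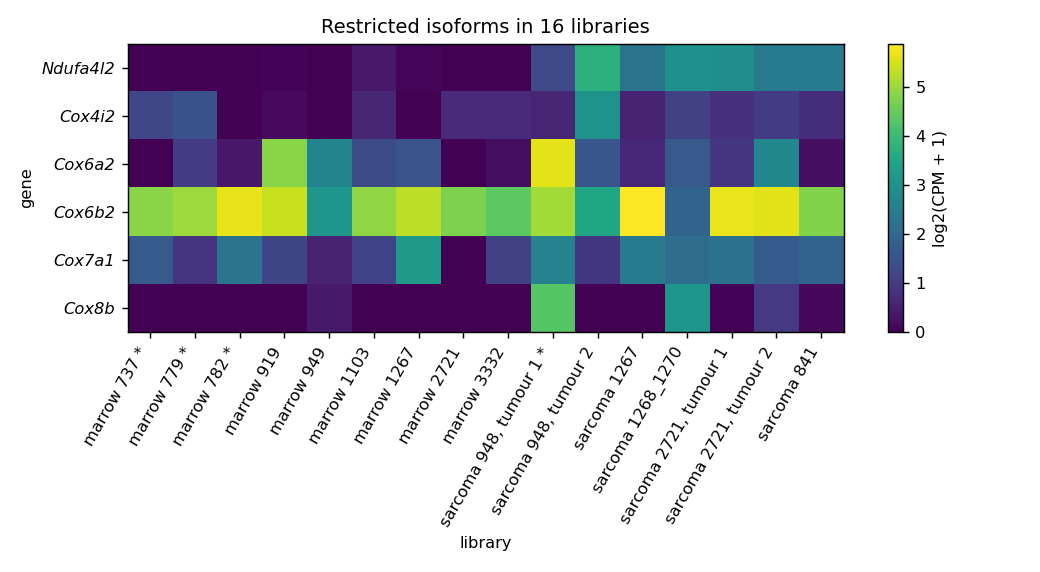
Colour gives log2(CPM + 1) of 6 isoforms with restricted expression in the 16 libraries, with an asterisk on the 4 libraries low in long transcripts. Ndufa4l2 is near 0 in the 9 marrows and present in all 7 sarcomas, while Cox6a2 is high in tumour 1 of mouse 948 and marrow 919, and Cox8b in tumour 1 of mouse 948 and sarcoma 1268_1270.

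Complex III had 8 members, none called. The core protein genes Uqcrc1 and Uqcrc2, which encode the matrix-facing part of the complex, had log2 fold changes of -0.76 ± 0.44 and -0.31 ± 0.51. Uqcrc1 was at 460, 481 and 460 CPM in marrow 737, 779 and 782 and at 119 to 272 CPM (median 156) in the 6 others. In SMC3+/- sarcoma it was at 226 and 80.8 CPM in tumours 1 and 2 of mouse 948, 215 in 1267, 188 in 1268_1270 and 118 and 112 in mouse 2721. The 3 marrows were above all other libraries, and the remainder overlapped between tissues (edgeR adjusted p = 0.545). Uqcrfs1, the Rieske iron-sulfur protein that hands electrons to cytochrome c1, had -0.23 ± 0.55 and turned to 0.29 without the 4 libraries. All 5 small accessory subunits had positive changes, with Uqcrb, a ubiquinone-binding subunit, at 0.56 ± 0.47.

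Complex IV had 18 members, of which Cox7b2 and Cox8c had 0 counts in all libraries and Cox8b was too low to test. Of the 10 accessory subunits of wide expression 7 had positive and 3 negative changes, and none was called. Cox4i1, which takes part in the regulation of the enzyme by ATP, was at 1408, 1311 and 908 CPM in marrow 737, 779 and 782, and at 226 to 894 CPM (median 316) in the 6 others. In SMC3+/- sarcoma it was at 1061 and 322 CPM in mouse 948, 523 in 1267, 613 in 1268_1270, and 430 and 382 in mouse 2721. The 3 marrows and the first tumour of mouse 948 again stood highest, and the log2 fold change was -0.29 ± 0.54. Cox5a had -0.45 ± 0.46, Cox6c 0.49 ± 0.52, Cox6a1 0.09 ± 0.37, Cox7a2 0.17 ± 0.57 and Cox7b 0.13 ± 0.56. Cox7a2l, a factor for joining complexes III and IV into supercomplexes, had -0.56 ± 0.59.

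Several subunits of complex IV come as a common and a tissue-restricted isoform. Promoters of a pair of such genes with a muscle form (Cox8a and Cox8b) and a pair with a testis form (Cox6b1 and Cox6b2) are shown because the forms of each pair had different patterns over the libraries. The stretch runs from 250 bases before to 10 after the RefSeq start in GRCm38.p6, 5′ to 3′, and capitals mark matches to the ETS motif CCGGAAG on either strand.
Cox8a, chr19:7217607-7217866, minus strand: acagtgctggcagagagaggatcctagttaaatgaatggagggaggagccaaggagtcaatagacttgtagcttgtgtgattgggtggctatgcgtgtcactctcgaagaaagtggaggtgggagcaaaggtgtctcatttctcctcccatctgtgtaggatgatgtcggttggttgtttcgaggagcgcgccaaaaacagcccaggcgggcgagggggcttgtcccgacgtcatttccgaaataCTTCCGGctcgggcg
Cox8b, chr7:140900437-140900696, minus strand: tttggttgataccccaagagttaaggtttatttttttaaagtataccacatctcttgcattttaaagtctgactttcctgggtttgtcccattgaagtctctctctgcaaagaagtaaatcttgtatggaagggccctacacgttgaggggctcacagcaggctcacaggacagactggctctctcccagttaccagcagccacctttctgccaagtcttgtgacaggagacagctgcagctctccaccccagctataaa
Cox6b1, chr7:30626105-30626364, minus strand: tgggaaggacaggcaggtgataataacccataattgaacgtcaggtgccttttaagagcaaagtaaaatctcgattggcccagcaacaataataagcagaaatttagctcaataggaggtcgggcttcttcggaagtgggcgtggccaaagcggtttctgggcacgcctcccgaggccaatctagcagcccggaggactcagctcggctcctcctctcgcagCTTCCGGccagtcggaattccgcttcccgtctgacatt
Cox6b2, chr7:4753085-4753344, minus strand: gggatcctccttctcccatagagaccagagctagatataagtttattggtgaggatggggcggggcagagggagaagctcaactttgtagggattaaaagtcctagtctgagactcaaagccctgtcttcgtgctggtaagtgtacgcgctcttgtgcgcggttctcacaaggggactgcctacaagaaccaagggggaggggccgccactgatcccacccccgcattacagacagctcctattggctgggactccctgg
The 300-base windows of the table reach further past the start, and in them Cox8a had 2 such matches, Cox6b1 had 1 and Cox8b and Cox6b2 had 0. None of the 4 windows held the NRF1 motif GCGC, any base, then TGCGC, or the YY1 motif AAGATGGC.

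Cox8a, the common form, was at 449, 541 and 322 CPM in marrow 737, 779 and 782 and at 103 to 281 CPM (median 148) in the 6 others. It was at 444 and 157 CPM in the tumours of mouse 948, 213 in 1267, 424 in 1268_1270, and 175 and 166 in mouse 2721, and was not called (log2 fold change 0.10 ± 0.47). Cox8b, the form of heart, skeletal muscle and brown fat, had 322 counts in tumour 1 of mouse 948, 165 in sarcoma 1268_1270, 21 in tumour 2 of mouse 2721, 7 in marrow 949 and at most 1 in every other library. The 3 tumours with most Cox8b were those with the highest sums of skeletal muscle markers, of which all 10 were above 0 there. The order differed, as Cox8b was at 7.48 CPM in sarcoma 1268_1270 with 174 CPM of muscle markers. In tumour 2 of mouse 2721 it was at 0.976 CPM with 542 CPM of them. The brown adipocyte markers Ucp1 and Cidea summed to 1.86 CPM at most, in sarcoma 1268_1270, the tumour rich in adipocyte transcripts. The part of muscle or fat tissue in these counts was not tested. Sarcoma 1267 had 0 counts of Cox8b, and with that mouse left out the gene passed the filter through the sarcomas where it was found. It was then called higher in sarcoma, with a log2 fold change of 7.08 and an edgeR adjusted p of 0.0213, where 4.97% of all genes were called higher. The sarcoma mouse lacking the gene had been removed, so this call gives no support for a difference. Cox8b was also the second member called with no count filter, where 6.42% of all genes were called higher.

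Cox6a2, the heart and skeletal muscle form of subunit 6a, was at 48.8 CPM in tumour 1 of mouse 948 and at 27.2 CPM in marrow 919. Tumour 2 of mouse 2721 had 5.72 CPM and marrow 949 had 5.29 CPM, and the other 12 libraries had 0 to 2.13 CPM. In marrow 919 skeletal muscle markers summed to only 15.3 CPM and Cox8b had 0 counts, so the 1169 counts of Cox6a2 there stood without them. The opposite-strand gene that overlaps it, Itgad, was at 2.25 CPM in that library. The fitted log2 fold change was 1.02 ± 1.49, and it turned to -1.58 without the 4 libraries. Cox6a1, the common form, was at 100 to 305 CPM (median 156) in the 6 other marrows and at 131 to 334 CPM in the 5 other SMC3+/- sarcomas.

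Cox6b2, described as a testis form, was found in every library. It was at 27.6, 31.2 and 50.4 CPM in marrow 737, 779 and 782, at 7.48 to 40.7 CPM (median 27.0) in the 6 others, and at 25.9 CPM in sarcoma 841. In SMC3+/- sarcoma it was at 32.4 and 9.96 CPM in the tumours of mouse 948, 57.4 in 1267, 51.1 and 47.5 in mouse 2721, and 2.63 in 1268_1270, its lowest value. That tumour was also the one with the fewest leukocyte transcripts. The next lowest levels, 7.48 CPM in marrow 949 and 9.96 CPM in tumour 2 of mouse 948, came with leukocyte marker sums of 9203 and 5924 CPM. The part of leukocyte content was not tested. Cox6b1, the common form, was at 230 CPM in sarcoma 1268_1270 and at 55.7 to 242 CPM (median 104) in the 6 other marrows, and neither form was called.

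Cox4i2, the isoform known from lung and for its induction by low oxygen, was at 6.90 CPM in tumour 2 of mouse 948 and at 0 to 1.77 CPM in the other 15 libraries. Tumour 2 of mouse 948 was thus the highest library for both Cox4i2 and Ndufa4l2. The log2 fold change of Cox4i2 was 1.31 ± 1.27 and its edgeR adjusted p 0.818. Cox7a1, the heart and muscle form of subunit 7a, was at 0 to 7.90 CPM over all libraries, highest in marrow 1267, and had 0.63 ± 1.02.

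Complex V had 17 members, all tested and none called, and 13 of the 17 changes were negative. All 5 subunits of the F1 head and its stalk were among these, as were all 3 genes of the c ring, the rotor through which protons pass. Atp5b, the catalytic beta subunit, was at 2189, 2026 and 1942 CPM in marrow 737, 779 and 782 and at 544 to 980 CPM (median 705) in the 6 others. It was at 1742 and 504 CPM in the tumours of mouse 948, 656 in 1267, 1665 in 1268_1270, and 416 and 393 in mouse 2721. The 3 marrows were the highest libraries, and the lowest values were those of mouse 2721's tumours (log2 fold change -0.31 ± 0.51). Without the 4 libraries Atp5b was at 0.05 and 3 of the 5 F1 genes were positive.

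The c ring genes Atp5g1, Atp5g2 and Atp5g3 encode the same mature protein. Their log2 fold changes were -0.30 ± 0.57, -0.49 ± 0.56 and -0.27 ± 0.50, and Atp5g3 turned to 0.20 without the 4 libraries while the other two stayed negative at -0.17 and -0.30. Atp5g3 was at 474, 435 and 535 CPM in marrow 737, 779 and 782, at 86.9 to 308 CPM (median 143) in the 6 others and at 367 CPM in tumour 1 of mouse 948. In the 5 other SMC3+/- sarcomas it was at 104 to 315 CPM, so the tissues overlapped. Near-identical copies of such genes could share reads, and how the counting treated these is not given in the sources used here. Of the 3 membrane-part genes, Atp5l had 0.21 over all samples and 0.59 without the 4 libraries, where sarcoma and marrow no longer overlapped (edgeR adjusted p = 0.333). It and Ndufa4l2 were the 2 members whose groups then did not overlap, a pattern of 5.02% of all genes, and no member had sarcoma below marrow throughout, as 0.666% of all genes had. Atp5s, a coupling factor that is not part of the enzyme core, had 0.89 ± 0.85, and Atp5sl, a paralogue of it, -0.49 ± 0.32.

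Mice 1267 and 2721 gave both tissues, and most members differed in direction between the 2 mice. In mouse 1267 the sarcoma was lower for 63 of 85 members and higher for 22, with a median log2 difference of -0.29, beside 0.52 for all genes and 0.09 for short non-members. In mouse 2721 the sarcoma was higher for 81 and lower for 4, with a median of 1.27, beside 0.48 for all genes and 1.23 for short non-members. Of all genes 72.1% were higher in the sarcoma of mouse 1267 and 67.7% in that of mouse 2721. Complex IV showed it most plainly, with 13 of 15 lower in mouse 1267 and all 15 higher in mouse 2721. The marrows of these mice had the highest and lowest sums of the 6 other marrows, 14332 and 4585 CPM, and their sarcomas lay between. The sum of 7 neutrophil markers also went opposite ways. In mouse 1267 it was 142512 CPM in marrow and 59006 CPM in sarcoma, and all 7 were lower in sarcoma. In mouse 2721 it was 37091 CPM in marrow and 54909 and 56429 CPM in the sarcomas, but the markers were split. Ltf fell from 4326 CPM in that marrow to 854 and 994 CPM, and Mpo from 4136 to 2003 and 1933 CPM. The other markers were higher in both sarcomas of that mouse. The part of neutrophils in the members' difference was not tested. Ndufa4l2 was higher in the sarcoma of both mice, with 130 counts against 1 in mouse 1267 and 152 and 96 against 0 in mouse 2721. Of the 22 members higher in the sarcoma of mouse 1267, only Ndufaf6 was lower in that of mouse 2721. Ndufs1 was among those that kept their direction, at 0.44 and 0.35. Uqcrc1, Atp5a1 and Atp5b were lower in the sarcoma of both mice. With 1 pair of tissues per mouse the difference between the mice has no replicate.

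**Figure D5:**
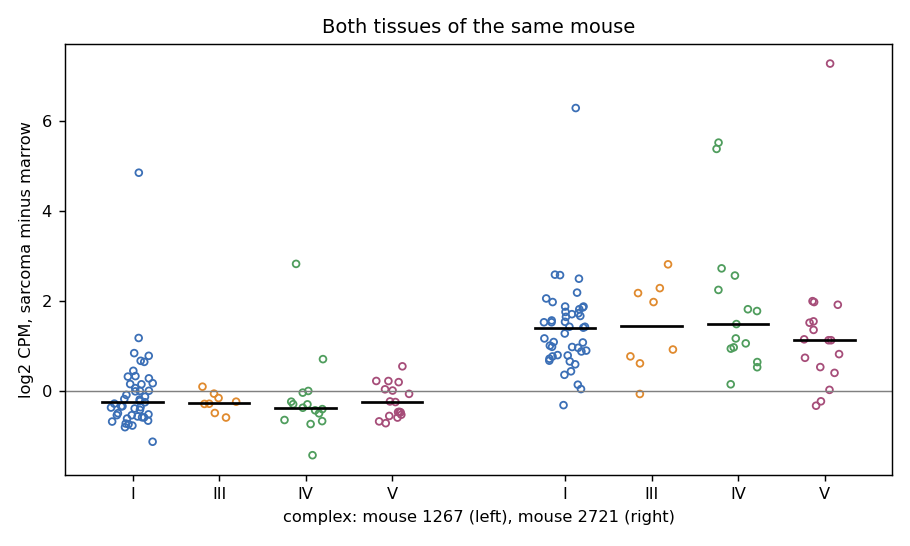
Points are log2 CPM differences, sarcoma minus marrow, of the 85 members by complex in mouse 1267 (left) and mouse 2721 (right), with bars at the medians. The medians lie between -0.38 and -0.26 in mouse 1267 and between 1.12 and 1.48 in mouse 2721, where the 4 highest points (Atp5s, Ndufa4l2, Cox6a2 and Cox7a1) had 0 counts in marrow and depend on the prior count.

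Tumours of the same mouse differed by different amounts. In mouse 948, 82 of 85 members were higher in tumour 1 than in tumour 2, with a median log2 difference of 2.27, while 68.2% of short non-members were higher, with a median of 1.10, as were 49.7% of all genes. Tumour 1 also had more of the neutrophil markers, 129738 against 20306 CPM, of the skeletal muscle markers, 3148 against 17.5 CPM, and of the adipocyte markers, 962 against 36.4 CPM. The part of such cells was not tested. Cox4i2 and Ndufa4l2 went the other way, as did 1 member of complex V. In mouse 2721, 66 of 85 members were higher in tumour 1, with a median of 0.10, and short non-members had a median of 0.06. There 58.1% of short non-members and 47.7% of all genes were higher in tumour 1.

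The sarcoma of mouse 841, the one labelled without SMC3+/-, was set against the 4 SMC3+/- sarcoma mice. Smc3 itself was at 137 CPM in sarcoma 841 and at 63.6 to 217 CPM in the SMC3+/- sarcomas, so its transcript did not set the genotypes apart. In marrow 737, 779 and 782 Smc3 was at 5.48, 3.53 and 8.46 CPM and elsewhere in marrow at 136 to 233 CPM. No member of 86 tested was called, where 0% of all 17762 genes were (edgeR quasi-likelihood test). No member had an unadjusted p under 0.05, where 0.535% of genes did as higher and 0.794% as lower. DESeq2 called 62 genes and 0 members. For 50 of the 86 members sarcoma 841 lay below all 4 mice, for 1 above and for 35 within their range, while 19.3% of all genes lay below and 9.3% above. These places are by mouse, with both tumours of mouse 948 summed. By library, the summed level of the members was 7387 CPM in sarcoma 841. It was lower in tumour 2 of mouse 948, at 5288 CPM, and 23493 CPM in tumour 1. The median log2 difference was -0.59 over the members and -0.33 over all genes. Leaving out mouse 948, whose first tumour is one of the 4 libraries, changed these to -0.26 and -0.12. A single mouse shows where that tumour lies and nothing about the genotype.

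Other genes of the pathway gave a like picture. In the fixed lists, 0 of 4 complex II genes, 0 of the 2 genes for cytochromes c and c1, 0 of 31 further assembly factors and 0 of 13 tested tricarboxylic acid cycle genes were called between sarcoma and marrow. The median log2 fold changes were -0.07, -0.18, 0.03 and 0.16. Of 14 regulators of mitochondrial biogenesis 1 was called, Ppara, a receptor that drives fatty acid oxidation, with 5.57 ± 1.48 and an edgeR adjusted p of 0.046. Ppara was at 10.7 CPM in sarcoma 1268_1270, at 0.139 to 1.80 CPM in the 5 other SMC3+/- sarcoma libraries and at 0 to 0.389 CPM over all 9 marrows. The highest value was in the tumour rich in adipocyte transcripts. Without that sarcoma the log2 fold change was 3.30 and the edgeR adjusted p 0.706, and without the 4 libraries they were 5.11 and 0.166. In alternatives run after that call was seen, it was also lost with mouse as a block (6.45, edgeR adjusted p = 1) and with most other single mice left out. Nrf1, the activator for which the promoter motif above is named, averaged 31.1 ± 10.1 CPM (SD, n = 4) in sarcoma and 47.1 ± 10.4 CPM (SD, n = 9) in marrow, with an edgeR adjusted p of 0.194. The 13 subunits encoded in mitochondrial DNA were not analysed here.

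Promoter motifs were a property the rule did not use. RefSeq windows (GRCm38.p6) were matched for 73 of the 88 genes. On both strands, NRF1 was found in 17 of them (23.3%) and in 5.19% of the windows of 27025 genes. The ETS motif was found in 15 (20.5%) against 9.93%, and YY1 in 11 (15.1%) against 3.19%. NRF1 matches lay in 9 of 39 windows of complex I, 1 of 5 of complex III, 1 of 13 of complex IV and 6 of 16 of complex V. A match is a description of the sequence and shows no binding. Among the genes with no matched window were Atp5a1, Cox4i1, Cox4i2, Cox6a2, Cox6c, Cox8c, Ndufa2, Ndufa4l2, Ndufaf6, Ndufb9, Ndufs1, Uqcrb, Uqcrc2 and Uqcrq.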

How the data were processed

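The authors deposited 1 table of whole-number read counts per gene symbol, and its values are raw counts, per the file headers and totals. Per the submitters' processing notes the tools were STAR, DESeq and DESeq2 and the build mm9, without versions. Poly(A) selection and a spike-in are stated per the labels' protocols, and the table has no row for a spike-in. Whether strand was used, and which annotation, is not given in the sources used here.

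Libraries of 1 mouse and tissue were summed, giving 14 samples. Genes that passed filterByExpr were tested with the edgeR 4.0.16 quasi-likelihood test (robust, TMM scaling, R 4.3.3), with Benjamini-Hochberg adjustment over all genes tested and a call at an adjusted p under 0.05. SE was taken from the F statistic. CPM uses TMM-scaled totals, of 16 libraries for single libraries and of 14 sums for mice. DESeq2 1.42.0, limma 3.58.1 and other scalings, filters and sample sets were alternatives, and the procedure was tested on simulated data.

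Transcript lengths are those of GENCODE M21 (GRCm38), matched by symbol for all 88 members. In that annotation 23 members overlap another coding gene. The rule for genes named was, per complex, the 3 smallest adjusted p, the isoform pairs, and the core or catalytic subunits, of which 1 is not reported here. Ndufb2, Ndufc2, Ndufa10, Ndufaf6, Atp5a1, Atp5l, Cox7a2l and Atp5e were named after their values were seen. The members and lists were chosen with earlier results of these data known. Mice 1267 and 2721 gave both tissues, which pairs those samples, and their deviations from the tissue means correlated at 0.291 and 0.207 over all genes.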

Additional observations from a re-analysis of the deposited data

Results flagged for a closer look

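Over the named members 68 groups of 4 or 9 mice were examined, and in 7 the highest mouse lay far from the others. The rule is meant to flag about 1 in 20 groups by chance. That rate was not checked for genes near 0 counts, and the groups share mice. The 7 of 68 can therefore not be read as an excess. Values are CPM after summing the libraries of a mouse and tissue. Ndufa4l2 was at 0.3184 in marrow 1103, and at most 0.0517 in the other 8 marrows. Ndufv3 was at 178.0 in marrow 1267, and at most 121 in the others. Cox6a2 was at 27.81 in marrow 919, and at most 5.32 in the others. In sarcoma 948 Cox6a2 was at 28.14, and at most 3.63 in the other 3 SMC3+/- mice. Cox7a1 was at 7.396 in marrow 1267, with at most 3.60 in the others, and at 4.376 in sarcoma 1267, with 3.22 to 3.31 in the other 3. Cox8b was at 0.3511 in marrow 949, which is 7 counts, and at 0 in the other 8. Marrow 1267 thus appears for Ndufv3 and Cox7a1, in the marrow with the highest sum of members outside the 4 libraries.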

How the results depend on the processing

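Ndufa4l2 was the call over all samples and kept its direction in all 28 alternatives, with log2 fold changes of 6.40 to 8.60. With at most 10 counts in any marrow that direction could hardly turn, so its constancy adds no support. Beside 1 member and 662 genes called higher over all samples, 71 members and 7693 of 14730 genes were after scaling to leukocyte markers, and 2 members and 1355 of 21093 genes with no count filter. No member was called without the 4 libraries and sarcoma 1268_1270 (62 genes higher), without the 4 and marrow 1267 (165, chosen after seeing the data), and with mouse as a replicate block, over all samples (107) or over mice 1267 and 2721 alone (81). Leaving out 1 mouse at a time gave 1 to 2. Cox8b was the second call in both cases, without a filter and without sarcoma 1267, which had 0 counts of it. The comparison of sarcoma 841 gave 0 called members in each of its 7 alternatives. The cause of these changes was not tested.

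No value that changed sign was called over all samples, where they lay between -0.76 for Uqcrc1 and 1.02 for Cox6a2. Scaling to leukocyte markers gave medians of 2.31, 2.24, 2.08 and 2.09 for complexes I, III, IV and V, and turned Ndufaf7 to 1.63, Uqcrc1 1.52, Uqcrc2 1.85, Cox5a 1.29, Atp5sl 1.41, Atp5g2 0.97, Cox4i1 2.01, Ndufv1 2.32, Uqcrfs1 2.07, Atp5b 2.39, Atp5g1 1.02 and Atp5g3 2.21. Without the 4 libraries Uqcrc2 was at 0.039, Cox4i1 0.17, Cox6a2 -1.58, Ndufv1 0.20, Uqcrfs1 0.29, Atp5b 0.045 and Atp5g3 0.20. Without marrow 1267 as well, Uqcrc2 was at 0.19, Cox5a 0.15, Atp5g2 0.024, Cox4i1 0.59, Cox6a2 -1.77, Ndufv1 0.295, Uqcrfs1 0.46, Atp5b 0.14, Atp5g1 0.35 and Atp5g3 0.48. Without sarcoma 1268_1270 and the 4, Cox4i1 was at 0.010, Cox6a1 -0.10, Cox6a2 -1.61, Ndufa4 -0.28, Ndufs1 -0.12, Uqcrfs1 0.028 and Atp5g1 0.037. With the replicate block over all samples Cox6a1 was at -0.047, Ndufa4 -0.24 and Uqcrfs1 0.0019, and over the paired mice alone Cox6a1 -0.00918, Ndufa4 -0.20, Uqcrfs1 0.040, Atp5g1 0.031 and Atp5g3 0.00867. With the pairing the single member call, Ndufa4l2, was lost, as was that of Ppara. In those fits only mice 1267 and 2721 inform the tissue difference, so a lost call there does not show that a difference is absent.

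Upper-quartile scaling gave Cox6b1 -0.075, Cox8a -0.00687 and Ndufa4 -0.00803. Cox6b2 was at -0.25 with limma-voom and at -0.265 with a transcript length offset, and Uqcrfs1 at 0.014 and 0.082, while the offset gave Atp5g3 0.016. With 1 mouse left out the ranges were -0.13 to 0.23 for Cox6a1, -0.98 to 2.72 for Cox6a2, -0.037 to 0.27 for Cox6b1, -0.31 to 0.44 for Cox6b2, -0.21 to 0.32 for Cox8a, -0.060 to 0.33 for Ndufa4, -0.22 to 0.44 for Ndufs1, -8.58e-05 to 0.39 for Ndufs7 and -0.44 to 0.013 for Uqcrfs1. Depth limits Ndufa4l2, which had at most 10 counts in any marrow.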
